A study of Mus musculus with 6 samples.

Results

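A group of 50 genes of mitosis and chromosome segregation was examined, from cyclin B and its activators to the kinetochore, the spindle motors and the cytokinetic ring. A probe belonged to the group if the accession on the array named one of these genes. The 50 genes were represented by 67 probes, and 48 of them were among the 22630 genes with enough signal to be tested. Aurkb and Cenpf were not well above background on all 3 arrays of any group in either dye, and were not tested. The samples were hematopoietic stem cells (HSCs) from mouse bone marrow. Of the Cdk6-/- samples, 3 came after polyI:C, a double-stranded RNA made by synthesis that triggers interferon, and 3 were untreated, each labelled with Cy5. Each was hybridised beside a wild-type pool of sorted HSCs of the same treatment, labelled with Cy3: pool2 after polyI:C and pool1 untreated. CDK6 is a cyclin-dependent kinase that acts with D-type cyclins in G1, and the study asked what it does when stem cells are activated. The ages of the mice, how many mice made up a sample or a pool, the dose of polyI:C and the kind of Cdk6 deletion are not given in the sources used here.

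Mitotic genes are transcribed late in the cell cycle, largely under the FOXM1 and B-MYB transcription factors with the MuvB complex, and are kept silent in resting cells by the DREAM complex. Cyclin B with CDK1 starts mitosis, the spindle checkpoint holds cells until every chromosome is attached, and the anaphase-promoting complex then frees separase to part the sister chromatids. Most adult HSCs rest outside the cell cycle, and interferon can draw them into it.

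Every value below is a log2 ratio of Cy5 to Cy3, that is of a Cdk6-/- sample to the wild-type pool of its treatment, unless it is called a level. The level is the normalized log2 intensity of 1 dye. A group's ratio is its mean over 3 arrays in 1 limma fit of all 6 arrays, with its standard error (SE). A gene passed where the p-value, adjusted by Benjamini and Hochberg over 22630 genes, was under 0.05. Each pool was 1 control sample hybridised 3 times, so its own biological spread is not in the test, and with no dye swap a dye bias and a genotype difference cannot be told apart in a ratio. The series describes the Cdk6-/- samples as biological replicates. Nothing else in the labels says that they came from separate mice, and p-values measure only the spread between these samples.

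Between 47.0 and 76.5% of spots were well above background in Cy5 and between 54.4 and 75.6% in Cy3. The upper end was polyI:C array 3 in both dyes, and the other arrays reached at most 55.7% in Cy5 and 58.7% in Cy3. Of the 48 tested mitotic genes, 48 were above background in Cy5 on each polyI:C array and 43 to 47 on the untreated arrays, and 47 or 48 in Cy3. All 16 HSC markers on the list were above background in both dyes on every array, and so were all 19 granulocyte markers tested. The probe that stood for Cdk6 was not above background in either dye on the untreated arrays. Its ratio was -0.26, -0.44 and -1.28 on the polyI:C arrays (mean -0.66, SE 0.24, limma adjusted p = 0.258). Where this probe lies against the deleted part is not known, and the knockout is therefore not checked by it. Array 3 of each treatment stood apart in the X-linked transcript Xist, with ratios of -3.42 on polyI:C array 3 and -3.98 on untreated array 3, against 0.42 to 1.87 on the other arrays. PolyI:C array 3 was also alone on its slide. Across the genes tested its ratios correlated at 0.13 and 0.22 with the other polyI:C arrays, which correlated at 0.56 with each other, as a description of arrays that share the Cy3 pool.

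In untreated HSCs, 19 of the 48 mitotic genes were lower in Cdk6-/- samples than in the wild-type pool and none was higher, where 9.94% of all genes tested were lower and 3.07% higher. The genes that fell were Cdc25c, Kif18b, Ttk, Kif2c, Mki67, Tpx2, Cenpe, Nuf2, Foxm1, Kif23, Kif22, Ckap2, Anln, Cdca3, Ccnb1, Cdc25b, Bub1, Ccnb2 and Cdc20. The median ratio of the 48 was -0.54, and that of all genes -0.05. At an unadjusted p under 0.05, 28 were lower (19% of all genes) and 0 higher (9.5% of all genes). The group's ratios ranged from -1.47 for Cdc25c to 0.47 for Mad2l1. The ratio was below 0 on all 3 untreated arrays in 33 of the 48 genes, against 28.3% of all genes. In a bulk sample, fewer dividing cells and less RNA of these genes per cell cannot be told apart. Leaving out untreated array 1, 2 or 3 left 8, 10 and 10 mitotic genes lower (5.17, 6.04 and 5.43% of all genes). Leaving out polyI:C array 1, 2 or 3, which share the estimate of spread, left 16, 15 and 17 (8.66, 8.01 and 10.7% of all genes). With the slide as a random block 15 were lower (8.43% of all genes). Ccnb2, Bub1, Cdc20 and Cenpe then did not pass (adjusted p = 0.052, 0.0559, 0.061 and 0.052). With each array centred on the median of all probes instead of loess, 6 mitotic genes were lower and 2 higher (Mad2l1 and Hmmr). Of the 22630 genes, 5.89% were lower and 4863 genes were higher under this centring. The genes tested then had a median of 0.30, and the mitotic median minus that of all genes was -0.47, against -0.49 with loess. The calls of Mki67, Foxm1, Cdc25c, Kif18b and Kif2c held without any 1 array.

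**Figure D1:**
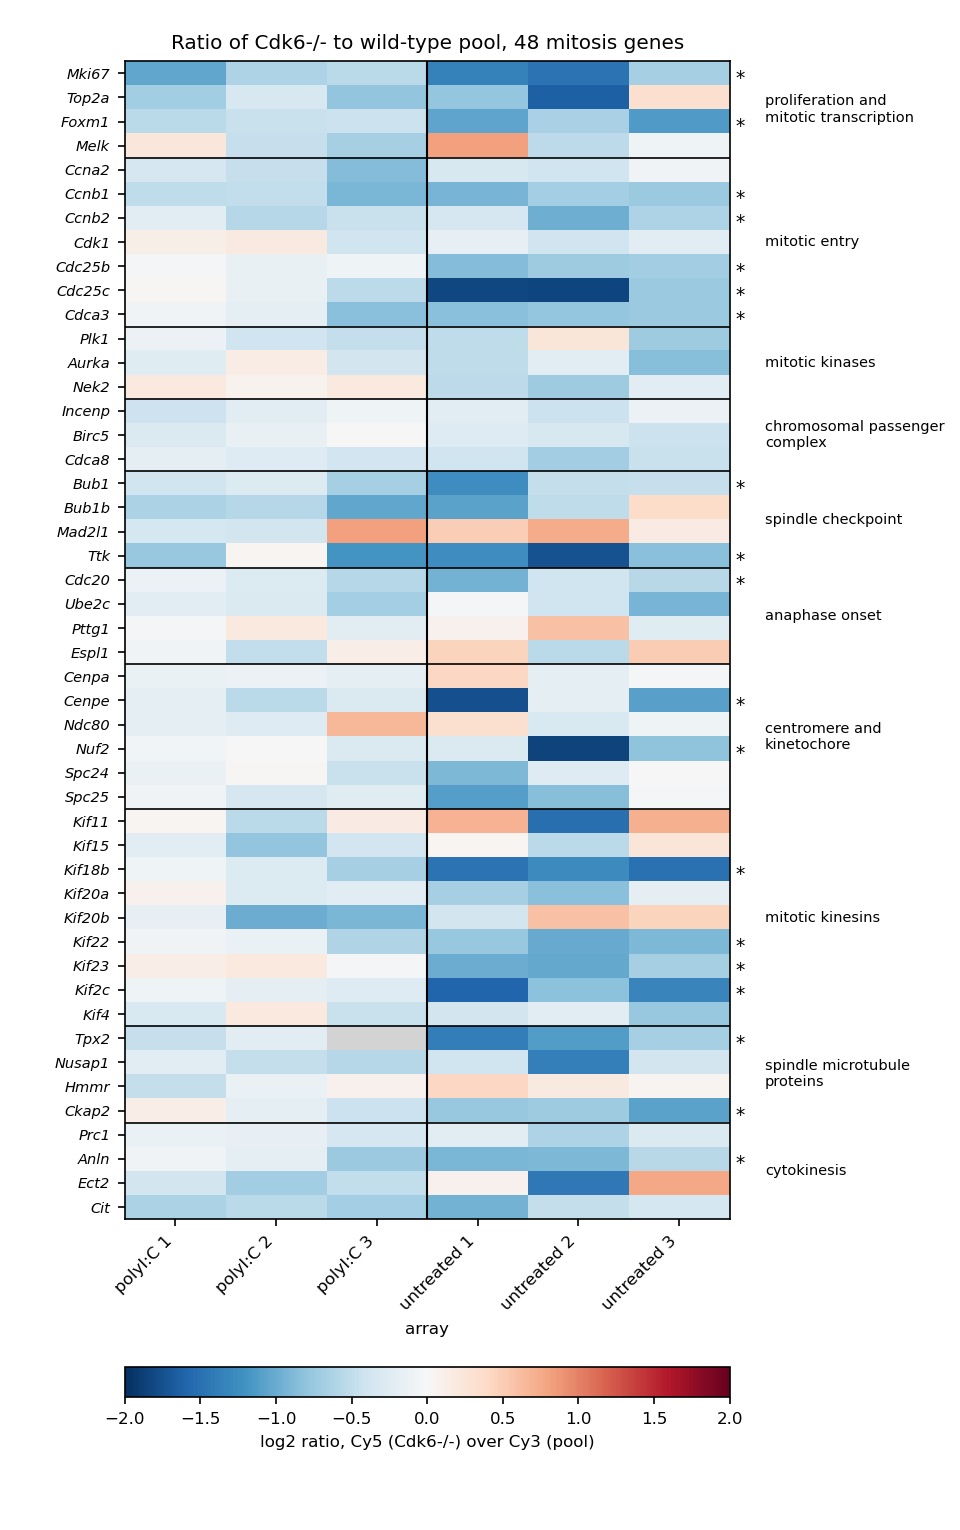
Log2 ratio of Cdk6-/- sample to wild-type pool for the 48 tested mitotic genes (rows, grouped by role) on the 3 polyI:C and 3 untreated arrays (columns); blue is lower in Cdk6-/-, red is higher, grey is a missing value. No gene passed over the polyI:C arrays, and an asterisk marks the 19 genes with a limma adjusted p under 0.05 over the untreated arrays.

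The promoters of these genes were compared for elements that mitotic genes are known to share. RefSeq promoters (mouse assembly GRCm38.p6, a window around the annotated start) were found for 42 of the 50 genes, as 44 sequences. The elements searched on both strands were the cell cycle genes homology region (CHR), spelled TTTGAA or TTCGAA, through which DREAM and B-MYB with MuvB bind, and the CCAAT box, spelled CCAAT, which NF-Y binds. An E2F site was spelled TTTCCCGC, TTTGGCGC, TTTCGCGC or TTTGCCGC. A CHR was found in 77.3% of the 44 promoters, against 19.2% of all 32851 promoters in the table. A CCAAT box was in 72.7% of the group and 37.4% of all, both elements were in 65.9% and 7.52%, and an E2F site was in 4.55% and 2.26%. The CHR lay in the last 50 bases of the window, after the start, in 47.7% of the group's promoters and 2.46% of all. The CCAAT box lay in the 50 bases before the start in 22 of the group's 44 promoters and in 9.03% of all. A CHR was in 81.2% of the 16 promoters of genes lower in untreated Cdk6-/- samples and in 74.1% of the 27 promoters of tested genes that did not pass.

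**Figure D2:**
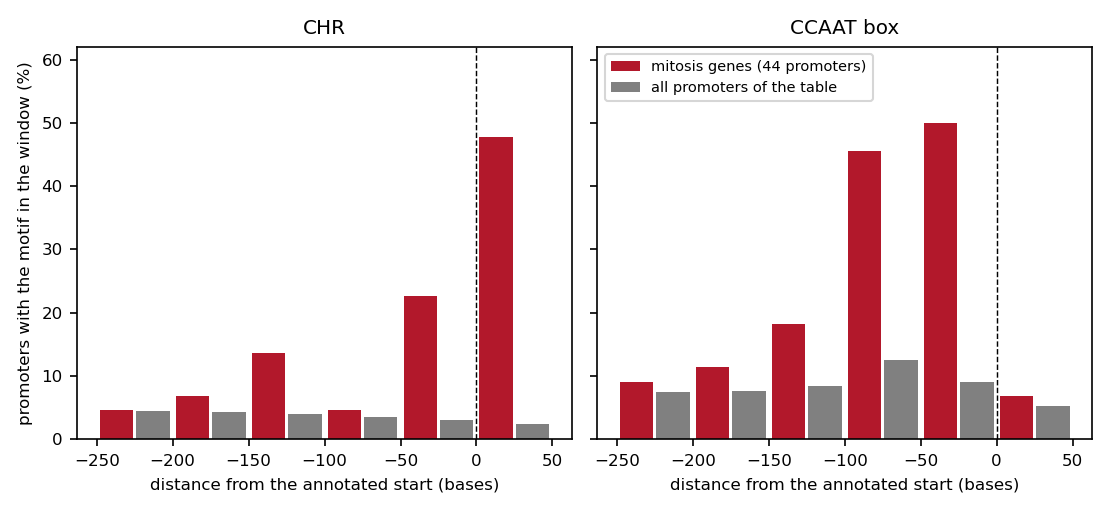
Percent of promoters with a CHR (left) or a CCAAT box (right) in each window of 50 bases, against distance from the annotated start, for 44 promoters of mitotic genes (red) and all 32851 promoters of the table (grey). The group's CHR is most frequent just after the start (47.7%) and its CCAAT box just before it (22 of 44 promoters).

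The 6 promoters below are shown because they belong to the ends of the untreated range: the 4 lowest ratios that passed with a promoter in the table, and the 2 highest ratios of the group. Capitals mark the letters of a CHR, CCAAT box or E2F site on either strand. The windows are chr11:102925075-102925374 on the minus strand for Kif18b, chr9:83834439-83834738 on the plus strand for Ttk, chr4:117178723-117179022 on the minus strand for Kif2c and chr7:135716330-135716629 on the minus strand for Mki67. Those of the highest ratios are chr6:66534971-66535270 on the plus strand for Mad2l1 and chr19:34922108-34922407 on the plus strand for Kif20b. Each is written 5′ to 3′ along the gene.
Kif18b: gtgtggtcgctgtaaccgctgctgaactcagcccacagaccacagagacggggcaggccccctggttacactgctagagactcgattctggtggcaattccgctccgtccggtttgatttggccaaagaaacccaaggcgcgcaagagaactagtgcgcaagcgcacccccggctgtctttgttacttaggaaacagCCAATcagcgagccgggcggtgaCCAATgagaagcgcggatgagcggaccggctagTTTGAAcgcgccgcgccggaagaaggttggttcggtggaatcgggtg
Ttk: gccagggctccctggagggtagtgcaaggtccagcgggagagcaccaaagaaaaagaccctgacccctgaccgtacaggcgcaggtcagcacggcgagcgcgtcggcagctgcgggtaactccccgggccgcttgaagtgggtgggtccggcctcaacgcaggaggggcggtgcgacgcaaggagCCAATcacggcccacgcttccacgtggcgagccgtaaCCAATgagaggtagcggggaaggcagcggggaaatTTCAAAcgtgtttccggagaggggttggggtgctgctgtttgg
Kif2c: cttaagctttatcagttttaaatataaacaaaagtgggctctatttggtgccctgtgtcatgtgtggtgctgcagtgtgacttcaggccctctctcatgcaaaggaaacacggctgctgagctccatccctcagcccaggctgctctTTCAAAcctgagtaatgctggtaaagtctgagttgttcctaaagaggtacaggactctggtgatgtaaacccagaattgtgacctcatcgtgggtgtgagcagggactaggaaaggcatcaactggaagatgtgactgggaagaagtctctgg
Mki67: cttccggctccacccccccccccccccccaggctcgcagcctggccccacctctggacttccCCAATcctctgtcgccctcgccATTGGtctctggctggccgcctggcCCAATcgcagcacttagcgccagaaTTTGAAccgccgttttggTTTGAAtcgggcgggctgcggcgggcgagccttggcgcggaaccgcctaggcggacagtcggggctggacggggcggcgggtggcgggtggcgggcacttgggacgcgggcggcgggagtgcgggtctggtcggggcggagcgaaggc
Mad2l1: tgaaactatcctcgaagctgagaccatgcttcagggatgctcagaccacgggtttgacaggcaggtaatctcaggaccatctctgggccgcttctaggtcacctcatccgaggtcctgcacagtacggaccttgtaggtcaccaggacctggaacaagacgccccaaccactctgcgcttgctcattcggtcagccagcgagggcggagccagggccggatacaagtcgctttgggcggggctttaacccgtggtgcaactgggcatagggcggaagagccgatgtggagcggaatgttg
Kif20b: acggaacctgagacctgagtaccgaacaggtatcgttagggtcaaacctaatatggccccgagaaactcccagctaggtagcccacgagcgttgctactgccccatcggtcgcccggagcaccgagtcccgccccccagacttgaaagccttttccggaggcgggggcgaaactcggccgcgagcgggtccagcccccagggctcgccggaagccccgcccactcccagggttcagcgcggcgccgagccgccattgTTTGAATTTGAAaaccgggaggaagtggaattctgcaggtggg
Kif18b and Ttk each held a CHR close to the start with 2 CCAAT boxes upstream of it, and Mki67 held 2 CHRs and 3 CCAAT boxes further upstream. Kif2c held a CHR and no CCAAT box. At the high end, Mad2l1 held none of these elements, while Kif20b held 2 CHRs side by side.

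Among the genes of proliferation and mitotic transcription, Mki67 and Foxm1 were lower in untreated Cdk6-/- samples, 2 of 4 genes. Mki67, which encodes the Ki-67 protein that coats mitotic chromosomes and marks dividing cells, had ratios of -1.03, -0.61 and -0.54 on the polyI:C arrays and -1.35, -1.47 and -0.66 on the untreated arrays. All 6 values lay below 0 and the groups overlapped. The polyI:C mean was -0.73 (SE 0.20, limma adjusted p = 0.15), and the untreated mean was -1.16 (SE 0.20, adjusted p = 0.0065). A second Mki67 probe gave -0.64 untreated. Foxm1, the transcription factor of mitotic genes, had ratios of -0.55, -0.45 and -0.43 with polyI:C and -1.05, -0.65 and -1.13 untreated. The polyI:C ratios were all closer to 0 than the untreated ones, and the untreated mean was -0.95 (SE 0.17, adjusted p = 0.00732). Its second probe gave -1.44 but was not above background in Cy5 on every untreated array. Top2a, the topoisomerase that untangles sister DNA, had ratios of -0.69, -0.33 and -0.79 with polyI:C and -0.77, -1.63 and 0.33 untreated. Untreated array 3 alone was above 0, the mean was -0.69 (adjusted p = 0.166), and without that array Top2a was lower at -1.20 (adjusted p = 0.0338). The kinase gene Melk had a mean of 0.08 untreated and did not pass.

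Among the genes of mitotic entry, 5 of 7 were lower in untreated Cdk6-/- samples: cyclins B1 and B2, both Cdc25 phosphatases and Cdca3. The CDK1 phosphatase gene Cdc25c had ratios of 0.02, -0.14 and -0.53 on the polyI:C arrays and -1.82, -1.84 and -0.74 on the untreated arrays. Every polyI:C ratio was above every untreated one. Over the untreated arrays the mean was -1.47 (SE 0.24, limma adjusted p = 0.00445), though only 1 of 3 Cdk6-/- samples was well above background there. Cdc25b, a related phosphatase that acts earlier, had ratios of -0.02, -0.14 and -0.09 with polyI:C and -0.86, -0.71 and -0.70 untreated. Its 2 groups did not overlap, and the untreated mean was -0.76 (SE 0.16, adjusted p = 0.0139). Without untreated array 1 or 3 it was at -0.70 (adjusted p = 0.0771) and -0.79 (adjusted p = 0.0535).

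Ccnb1, the main mitotic cyclin, had ratios of -0.51, -0.49 and -0.92 with polyI:C and -0.92, -0.68 and -0.74 untreated. All were below 0 and the treatments overlapped. The polyI:C mean was -0.64 (limma adjusted p = 0.132, the lowest of the group with polyI:C) and the untreated mean -0.78 (SE 0.17, adjusted p = 0.0167). Without untreated array 1, 2 or 3 the untreated adjusted p was 0.0907, 0.0502 and 0.0646. Ccnb2 had ratios of -0.23, -0.57 and -0.44 with polyI:C and -0.33, -0.98 and -0.61 untreated, again all below 0. Its untreated mean was -0.64 (adjusted p = 0.0457), and its adjusted p was 0.0661 to 0.22 without any 1 untreated array and 0.0667 and 0.0783 without polyI:C array 1 or 2. Cdca3, an entry factor that helps remove the inhibitory kinase WEE1, had ratios of -0.06, -0.18 and -0.84 with polyI:C and -0.84, -0.77 and -0.74 untreated. The untreated arrays agreed closely (mean -0.78, SE 0.19, adjusted p = 0.0247), and the adjusted p was 0.0838 to 0.106 without any 1 of them.

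The partner kinase Cdk1 and the earlier cyclin Ccna2 did not pass. Cdk1 had ratios of 0.12, 0.18 and -0.40 with polyI:C and -0.17, -0.40 and -0.23 untreated (mean -0.27, SE 0.18, limma adjusted p = 0.37). Ccna2 had ratios of -0.33, -0.46 and -0.87 with polyI:C and -0.32, -0.40 and -0.07 untreated (mean -0.27, adjusted p = 0.366). The probe that stood for each gene was below 0 on every untreated array, and that of Ccna2 on every polyI:C array too. A second tested Cdk1 probe gave -0.21 untreated. Another Cdk1 probe, too dim to be tested, had ratios of 0.46, -0.20 and 0.41 untreated.

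Of the mitotic kinase genes grouped here, Plk1, Aurka and Nek2, none passed in either treatment, though 2 had an unadjusted p under 0.05 untreated. The kinase genes Ttk and Bub1, which were lower untreated, are given below with the spindle checkpoint. Plk1, the polo-like kinase that acts from mitotic entry to cytokinesis, had ratios of -0.12, -0.39 and -0.47 with polyI:C and -0.51, 0.25 and -0.71 untreated. Untreated array 2 lay on the other side of 0, and the mean was -0.32 (SE 0.21, limma adjusted p = 0.344). Aurka, the centrosome kinase, had ratios of -0.24, 0.15 and -0.36 with polyI:C and -0.50, -0.21 and -0.86 untreated (mean -0.52, adjusted p = 0.101). Nek2, which splits the centrosomes, had ratios of 0.20, 0.07 and 0.20 with polyI:C and -0.52, -0.72 and -0.22 untreated. Its ratio was above 0 on every polyI:C array and below 0 on every untreated one, and the untreated mean was -0.48 (adjusted p = 0.0917).

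The chromosomal passenger complex corrects faulty attachments through the kinase Aurora B. Its kinase gene Aurkb was not tested. The other genes had small ratios and did not pass: in untreated samples Incenp, the scaffold, was at -0.26, Birc5, which encodes survivin, at -0.34 and Cdca8, which encodes borealin, at -0.51 (limma adjusted p = 0.354, 0.205 and 0.0697). Other probes gave -0.53 and -0.68 for Birc5, -0.11 for Cdca8 and -0.26 for Incenp untreated, none past the threshold. Birc5 had ratios of -0.29, -0.14 and -0.01 with polyI:C and -0.26, -0.32 and -0.43 untreated. The probe that stood for each of the 3 genes was below 0 on all 6 arrays. The other Cdca8 probe was above 0 on untreated array 1 (0.13) and polyI:C array 3 (0.24), and below 0 on the rest. The median polyI:C ratio of the 3 genes was -0.23.

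In the spindle checkpoint, Ttk and Bub1 were lower in untreated Cdk6-/- samples, 2 of 4 genes. Ttk, the kinase that starts checkpoint signalling, had ratios of -0.75, 0.03 and -1.19 on the polyI:C arrays and -1.24, -1.74 and -0.83 on the untreated arrays. The polyI:C arrays spread widely and the groups overlapped. The mean of the untreated arrays was -1.27 (SE 0.25, limma adjusted p = 0.0108), or -1.04 (adjusted p = 0.0641) without untreated array 2, and 2 of 3 Cdk6-/- samples were above background. Bub1, a checkpoint kinase of the kinetochore, had ratios of -0.39, -0.27 and -0.66 with polyI:C and -1.25, -0.47 and -0.47 untreated. Untreated array 1 was the lowest. The mean was -0.73 (adjusted p = 0.0399), with -0.47 (adjusted p = 0.229) without that array, 0.0678 and 0.0754 as adjusted p without untreated array 2 or 3, and 0.0602 and 0.065 without polyI:C array 1 or 2. Bub1b, which encodes the checkpoint inhibitor BubR1, had ratios of -0.63, -0.57 and -1.04 with polyI:C and -1.07, -0.50 and 0.36 untreated, and did not pass. Mad2l1, which encodes the inhibitor Mad2, had the highest untreated mean of the group, 0.47 (adjusted p = 0.246). Its 2 other probes gave -0.21 and -0.01, so its probes lay on both sides of 0.

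At anaphase onset, 1 of 4 genes was lower in untreated Cdk6-/- samples. Cdc20, which activates the anaphase-promoting complex, had ratios of -0.12, -0.27 and -0.58 with polyI:C and -0.95, -0.40 and -0.55 untreated. All were below 0, with overlap between treatments. The untreated mean was -0.64 (SE 0.18, limma adjusted p = 0.047). Its adjusted p was 0.0768 to 0.233 without any 1 untreated array and 0.0675 and 0.0831 without polyI:C array 1 or 2. Pttg1, which encodes securin, the guard of separase, had ratios of -0.04, 0.19 and -0.21 with polyI:C and 0.08, 0.58 and -0.24 untreated. Both groups straddled 0. Ube2c, the ubiquitin-conjugating enzyme of the complex, was at -0.45 (-0.05 for a second probe) and Espl1, which encodes separase itself, at 0.14 untreated, neither past the threshold.

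At centromeres and kinetochores, Cenpe and Nuf2 were lower in untreated Cdk6-/- samples, 2 of 6 genes tested. Cenpe, a kinesin that carries chromosomes to the spindle equator, had ratios of -0.17, -0.54 and -0.28 with polyI:C and -1.75, -0.18 and -1.09 untreated. Untreated array 2 stood within the polyI:C range. Over the untreated arrays the mean was -1.01 (SE 0.26, limma adjusted p = 0.0314), or -0.63 (adjusted p = 0.185), -0.97 (adjusted p = 0.129) and -1.01 (adjusted p = 0.0524) without untreated array 1, untreated array 3 or polyI:C array 3. Nuf2, a subunit of the Ndc80 complex that grips microtubules, had ratios of -0.05, -0.01 and -0.29 with polyI:C and -0.28, -1.86 and -0.81 untreated. Of its 3 untreated Cdk6-/- samples, 2 were above background. Untreated array 2 was lowest here, and the mean was -0.98 (SE 0.26, adjusted p = 0.035). Without that array it was -0.55 (adjusted p = 0.177), and the adjusted p was 0.0978 without untreated array 3 and 0.0528 and 0.0543 without polyI:C array 2 or 3. The other subunits of the same complex did not pass. Ndc80 had ratios of -0.18, -0.26 and 0.67 with polyI:C and 0.32, -0.30 and -0.08 untreated. Spc24 and Spc25 had untreated means of -0.38 and -0.66, and Spc25 was lower at -0.97 (adjusted p = 0.0321) without untreated array 3. Cenpa, the histone variant that marks centromeres, had ratios of -0.13, -0.11 and -0.19 with polyI:C and 0.41, -0.19 and -0.03 untreated. Its untreated mean was 0.06 (adjusted p = 0.844).

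Among the mitotic kinesins, 4 of 9 were lower in untreated Cdk6-/- samples: Kif18b, Kif2c, Kif23 and Kif22. Kif18b, which shortens microtubules at their growing ends, had ratios of -0.08, -0.27 and -0.66 on the polyI:C arrays and -1.47, -1.28 and -1.49 on the untreated arrays. The 2 groups were well apart. Untreated, the mean was -1.41 (SE 0.18, limma adjusted p = 0.00156), the lowest adjusted p of the group, with 1 of 3 Cdk6-/- samples above background. Kif2c, a depolymerase that frees wrongly attached microtubules, had ratios of -0.09, -0.19 and -0.26 with polyI:C and -1.59, -0.81 and -1.33 untreated. These groups did not overlap either. The mean of the untreated arrays was -1.24 (SE 0.19, adjusted p = 0.00345), and a second, dimmer probe gave -0.46 and did not pass.

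Kif23, the motor of the central spindle, had ratios of 0.14, 0.19 and -0.03 with polyI:C and -1.0, -1.02 and -0.67 untreated. Its polyI:C ratios lay around 0 and clear of the untreated ones. The untreated mean was -0.90 (SE 0.17, limma adjusted p = 0.00843), or -0.85 (adjusted p = 0.051) without untreated array 1. Kif22, which pushes chromosome arms outward, had ratios of -0.07, -0.13 and -0.60 with polyI:C and -0.76, -1.01 and -0.89 untreated. The groups were again separate, with an untreated mean of -0.89 (SE 0.18, adjusted p = 0.011), or -0.82 (adjusted p = 0.0557) and -0.88 (adjusted p = 0.0536) without untreated array 2 or 3. Kif11, the motor that makes the spindle bipolar, had ratios of 0.05, -0.54 and 0.17 with polyI:C and 0.69, -1.51 and 0.72 untreated. Untreated array 2 opposed the other 2 arrays, and the SD of 1.28 was the largest of the group. Only 2 of 3 untreated Cdk6-/- samples were above background for Kif11. The remaining kinesins had untreated means of -0.56 for Kif20a, a motor of cytokinesis, -0.45 for the chromosome-bound Kif4, -0.09 for Kif15, a helper of Kif11, and 0.22 for Kif20b, none past the threshold. Kif15 was not above background in any untreated Cdk6-/- sample.

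Of the spindle microtubule proteins, Tpx2 and Ckap2 were lower in untreated Cdk6-/- samples, 2 of 4 genes. Tpx2, which activates Aurora A on the spindle, had ratios of -0.46 and -0.21 on polyI:C arrays 1 and 2, with no value on array 3, and -1.38, -1.11 and -0.66 untreated. The values were separate. Over the untreated arrays the mean was -1.05 (SE 0.20, limma adjusted p = 0.00997), or -0.89 (adjusted p = 0.0639) without untreated array 1. A second probe gave -0.06, but it was not above background on all 3 untreated arrays in either dye. Ckap2, a microtubule stabiliser, had ratios of 0.13, -0.18 and -0.43 with polyI:C and -0.76, -0.72 and -1.06 untreated, also separate. Its untreated mean was -0.85 (SE 0.18, adjusted p = 0.0139), or -0.89 (adjusted p = 0.0531) and -0.74 (adjusted p = 0.0823) without untreated array 1 or 3. Nusap1, which binds spindle microtubules near chromatin, was at -0.71 (adjusted p = 0.0613) and Hmmr, a spindle protein that also binds hyaluronan, at 0.21 (adjusted p = 0.479).

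In cytokinesis, 1 of 4 genes was lower in untreated Cdk6-/- samples. Anln, which encodes the ring scaffold anillin, had ratios of -0.07, -0.19 and -0.74 with polyI:C and -0.91, -0.90 and -0.55 untreated. Array 3 of each treatment brought the groups into overlap. Untreated, the mean was -0.78 (SE 0.19, limma adjusted p = 0.0237), and the adjusted p was 0.0544 to 0.113 without any 1 untreated array. Prc1, which bundles the central spindle, had ratios of -0.14, -0.17 and -0.33 with polyI:C and -0.21, -0.62 and -0.29 untreated. All 6 lay below 0 but the mean of -0.37 did not pass (adjusted p = 0.179). Ect2, the exchange factor that places the ring, had ratios of -0.36, -0.69 and -0.50 with polyI:C and 0.08, -1.43 and 0.77 untreated, so the untreated arrays disagreed in sign. Cit, the citron kinase of the midbody, was at -0.62 with polyI:C and -0.58 untreated (adjusted p = 0.16 and 0.057).

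**Figure D3:**
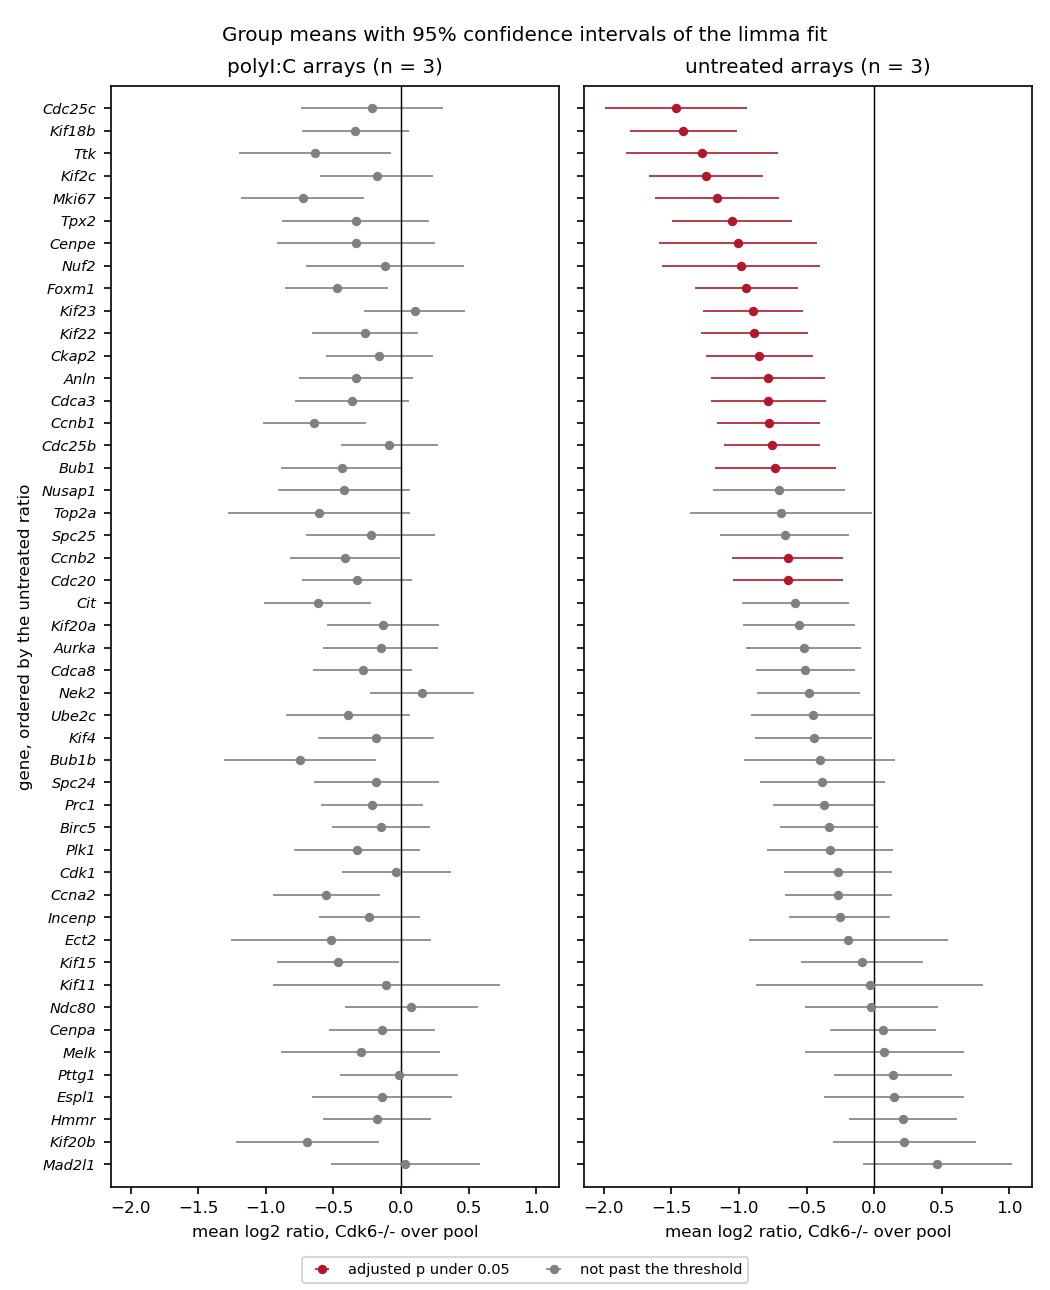
Mean log2 ratio of Cdk6-/- to wild-type pool (points) with its 95% confidence interval from the limma fit (lines) for the 48 tested mitotic genes, over 3 polyI:C arrays (left) and 3 untreated arrays (right). The polyI:C means run from -0.75 to 0.16. Red marks an adjusted p under 0.05, and the 19 red genes run from -1.47 for Cdc25c to -0.64 for Cdc20 untreated.

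After polyI:C, 0 of the 48 mitotic genes passed, where 0.981% of all genes did so by limma, 0.654% lower and 0.327% higher. At an unadjusted p under 0.05, 10 were lower (7.05% of all genes) and none was higher (6.39% of all genes). The 10 were Mki67, Foxm1, Ccna2, Ccnb1, Ccnb2, Bub1b, Ttk, Kif15, Kif20b and Cit. The mean ratio was below 0 in 44 of 48 genes, and the median of -0.27 compared with -0.02 for all genes. The ratio was below 0 on all 3 polyI:C arrays in 30 genes (21.6% of all genes), and on all 6 arrays in 23 genes (8.52% of all genes). Bub1b had the lowest polyI:C mean, -0.75 (SE 0.25, adjusted p = 0.226). A miss of the threshold does not show that the 2 genotypes had equal levels: the 95% interval for Bub1b ran from -1.31 to -0.19.

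The difference between the polyI:C and untreated ratios, in which a constant dye bias cancels, passed for 0 of 48 genes, against 1.81% of all genes in either direction by limma. At an unadjusted p under 0.05, 10 genes had a higher ratio with polyI:C (11.2% of all genes) and 1 a lower one (5.36%). The largest differences were 1.25 for Cdc25c (SE 0.33, adjusted p = 0.0911), 1.07 for Kif18b (SE 0.25, adjusted p = 0.0624), 1.06 for Kif2c (SE 0.27, adjusted p = 0.0769) and 1.0 for Kif23 (SE 0.24, adjusted p = 0.0656). Kif18b passed at 1.1 (adjusted p = 0.0467) with the slide as a random block, and Kif2c at 1.28 (adjusted p = 0.0499) without untreated array 2. Kif20b ran the other way, at -0.91 (SE 0.34, adjusted p = 0.202). The polyI:C ratio was above the untreated one in 34 of 48 genes, with a median difference of 0.23 against 0.04 for all genes. Among the 47 genes with a value on every array, all polyI:C ratios were above all untreated ratios in 10, namely Foxm1, Cdc25b, Cdc25c, Nek2, Cdca8, Kif18b, Kif22, Kif23, Kif2c and Ckap2 (14.3% of all genes). None was separate in the other direction (8.52% of all genes). Within slide 1 the median difference was 0.28 (0.02 for all genes), and within slide 2 it was 0.41 (0.05 for all genes). The untreated arrays enter both this difference and the untreated ratio, so the 2 comparisons are not independent.

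**Figure D4:**
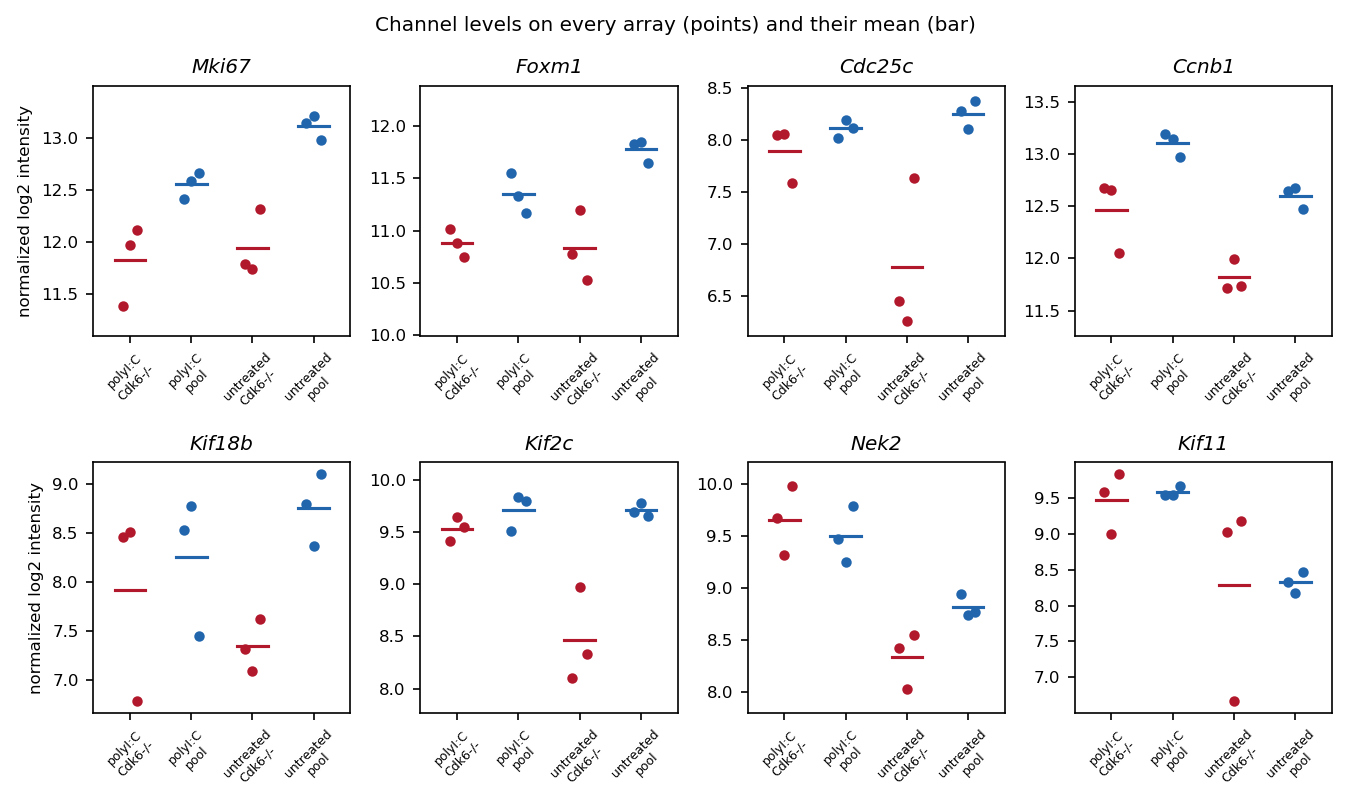
Normalized log2 intensity of 8 mitotic genes on every array (points) and its mean (bar), for Cdk6-/- samples (red, Cy5) and wild-type pools (blue, Cy3), with polyI:C left of untreated. Mki67 and Foxm1 levels are lower in the polyI:C pool than in the untreated pool, the mean levels of Cdc25c and Kif2c are higher in polyI:C than in untreated Cdk6-/- samples, with overlap for Cdc25c and neither past the threshold, and untreated array 2 sets the spread of Kif11.

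The level in each dye was then compared between treatments. Among Cdk6-/- samples, 0 of 48 genes passed between polyI:C and untreated (limma, 0.163% of all genes in either direction). At an unadjusted p under 0.05, 5 were higher with polyI:C (5.39% of all genes), namely Nek2, Cdc25c, Nuf2, Kif20a and Kif2c, and 0 lower (4.92%). The Nek2 level in Cdk6-/- samples was 9.67, 9.31 and 9.98 with polyI:C and 8.42, 8.02 and 8.55 untreated. These levels did not overlap, and the difference was 1.32 (95% interval 0.57 to 2.07, adjusted p = 0.192). The Kif2c level in Cdk6-/- samples was 9.42, 9.64 and 9.55 with polyI:C and 8.10, 8.97 and 8.33 untreated, a difference of 1.07 (adjusted p = 0.309). Its pool level averaged 9.71 in both treatments. Cdc25c had mean Cdk6-/- levels of 7.90 with polyI:C and 6.78 untreated (adjusted p = 0.395), with polyI:C array 3 at 7.59 just below untreated array 3 at 7.63, and pool means of 8.11 with polyI:C and 8.25 untreated.

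Mki67 and Foxm1 showed another arrangement. The mean Mki67 level in Cdk6-/- samples was 11.83 with polyI:C and 11.95 untreated, while the pools were at 12.56 with polyI:C and 13.11 untreated. Foxm1 averaged 10.88 with polyI:C and 10.83 untreated in Cdk6-/- samples, and 11.35 with polyI:C and 11.78 untreated in the pools. Kif23 averaged 10.34 with polyI:C and 10.83 untreated in Cdk6-/- samples, and 10.24 with polyI:C and 11.72 untreated in the pools. Ccnb1 was higher with polyI:C on both sides, at 12.46 against 11.82 in Cdk6-/- samples (adjusted p = 0.557) and 13.10 against 12.60 in the pools. Each pool is 1 sample, so its 2 levels have no test. Over all 48 genes the median change with polyI:C was 0.38 in Cdk6-/- samples (0.03 for all genes) and 0.21 in the pools. The Cdk6-/- level was higher on every polyI:C array than on every untreated array in 7 of the 47 genes with all values (9.19% of all genes) and lower in 1, Hmmr (7.81%). Kif15 is among the 7, but it was tested only because its probe was above background on the polyI:C arrays. No untreated Cdk6-/- sample was above background for Kif15, so its place in this count carries no weight.

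Other mitotic genes were listed as a comparison, and 9 of the 83 tested were lower in untreated Cdk6-/- samples, a share close to the 9.94% of all genes, with a median of -0.22 and none higher. Among them were Cdkn3, a phosphatase of cyclin-dependent kinases (-1.30, SE 0.19, limma adjusted p = 0.00326), Pmf1 of the kinetochore (-1.25, adjusted p = 0.00438), Fbxo5, an inhibitor of the anaphase-promoting complex (-0.85), Aspm of the spindle poles (-0.80), Gtse1 (-0.78), Depdc1b (-0.86) and Cenpp (-1.29). Cenpp had ratios of -2.70, -0.71 and -0.46 on untreated arrays 1, 2 and 3, so array 1 set its mean. With polyI:C, 0 of 83 passed, 16 were lower at an unadjusted p under 0.05 (7.05% of all genes), and the median was -0.28.

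Of 24 regulators of mitotic transcription, 1 was lower in untreated Cdk6-/- samples, a smaller share than the 9.94% of all genes, and the same gene was lower with polyI:C. This was E2f7, an E2F family repressor of cell cycle genes, with ratios of -1.62, -0.74 and -1.46 on the polyI:C arrays and -2.52, -1.56 and -1.70 on the untreated arrays. All 6 were well below 0. The mean was -1.27 with polyI:C (SE 0.24, limma adjusted p = 0.0406) and -1.93 untreated (SE 0.24, adjusted p = 0.00149). Mybl2, which encodes B-MYB, was at -0.23 with polyI:C and -0.50 untreated, and E2f2 at -0.03 with polyI:C and -0.56 untreated, neither past the threshold. Lin54 of the MuvB complex was at -0.01 with polyI:C and -0.57 untreated, and Trp53 at -0.47 with polyI:C and 0.51 untreated, also not past it.

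DNA replication genes, which act in S phase before mitosis, were lower in untreated Cdk6-/- samples in 2 of 38 cases, a smaller share than the 9.94% of all genes, and the median was -0.11. These were Cdc45, a helicase factor (-0.80, SE 0.16, limma adjusted p = 0.0119), and Tk1, a thymidine kinase (-0.70, SE 0.17, adjusted p = 0.0254). With polyI:C 0 of 38 passed, 17 had a lower ratio at an unadjusted p under 0.05 (7.05% of all genes), and the median was -0.40. The mitotic group had medians of -0.27 with polyI:C and -0.54 untreated, so the 2 lists were ordered differently in the treatments. That difference between lists was not tested.

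**Figure D5:**
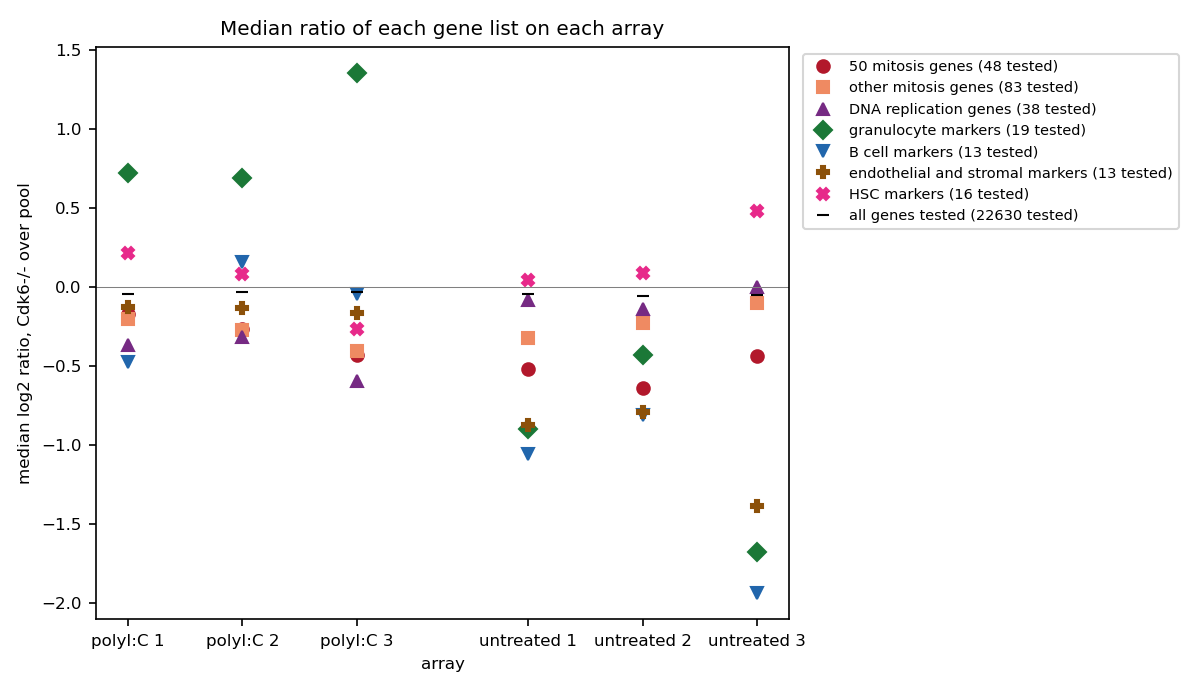
Median log2 ratio of Cdk6-/- to wild-type pool for each gene list on each array, with polyI:C arrays left of untreated arrays; each marker is 1 list. The median of the 48 tested mitotic genes lies below that of all genes on every array, and granulocyte markers lie above 0 on the polyI:C arrays and below 0 on the untreated arrays.

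Markers of several other cell types moved between the same samples, where 9.94% of all genes were lower untreated. In untreated Cdk6-/- samples 10 of 19 granulocyte markers were lower, and their summed linear level was 214307 to 354853 against 477320 to 640357 in the pool. For B cells it was 7 of 13 markers, at 21374 to 31792 against 47250 to 49044, and for endothelial and stromal cells 9 of 13, at 11504 to 16181 against 27785 to 29351. Monocyte and macrophage markers were lower in 3 of 15, at 26429 to 39013 against 44596 to 47327, and erythroid markers in 4 of 19, at 136515 to 174506 against 131578 to 174866. None of these lists was undetected: 10 or more markers of each were above background in Cy5 on every untreated array. After polyI:C, granulocyte markers had a median ratio of 0.89, with 1 of 19 higher (0.327% of all genes). They summed to 222019 to 289759 in Cdk6-/- samples against 105521 to 138623 in the pool. The median for monocyte and macrophage markers was 0.85, with 1 of 15 higher. Erythroid markers were below 0 in both treatments, as the mitotic genes were, with medians of -0.86 with polyI:C and -0.30 untreated. With polyI:C 4 of 19 were lower (0.654% of all genes) and 18 of 19 lay below 0. Their summed level was 33529 to 101988 in Cdk6-/- samples against 62439 to 114361 in the pool. On array 2 of each treatment the Cdk6-/- sum was the higher one, at 101988 against 62439 with polyI:C and 159442 against 131578 untreated. B cell markers and endothelial and stromal markers had polyI:C medians of -0.0024 and -0.11, with 0 of 13 past the threshold in each (0.981% of all genes). HSC markers had a median of 0.20 untreated with 1 of 16 higher (3.07% of all genes) and 0 lower. Of 12 megakaryocyte and platelet markers, 3 were lower and 1 higher untreated. None of 14 T and NK cell markers passed untreated, with a median of -0.06. The part of other cell types in the mitotic ratios was not tested.

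The arrays of a group differed more for some of these genes than for others. The SD over 3 arrays had a median of 0.24 with polyI:C and 0.33 untreated for the mitotic genes, against 0.29 with polyI:C and 0.30 untreated for all genes. The group's median ratio on each array was -0.17, -0.27 and -0.43 on polyI:C arrays 1, 2 and 3 and -0.52, -0.64 and -0.43 on untreated arrays 1, 2 and 3. It was below the median of all genes on each of the 6 arrays. Without array 3 of both treatments 13 of 48 genes were lower untreated (5.54% of all genes) and 0 with polyI:C (0% of all genes). Of the 11 genes with 2 or more tested probes, Ccnb1, Kif2c and Tpx2 had probes on both sides of the threshold in untreated samples. The second probes of Kif2c and Tpx2 were not above background on all 3 untreated arrays in either dye. Mad2l1 had probes on both sides of 0.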

How the data were processed

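Gene expression was measured on 6 two-colour arrays of 1 Cdk6-/- sample (Cy5) and 1 wild-type pool (Cy3) each, 3 arrays per treatment. Per the labels' protocols, RNA was pre-amplified (TransPlex WTA2), and the dyes were platinum complexes that couple to guanine. RNA integrity numbers ranged from 5,3 to 8,9. Per the file headers, spots were read with Agilent Feature Extraction 11.5.1.1, and 5 of 6 headers named mm9 as the build. The deposited scanner files give the median intensity of spot and background, processed intensity signals after background subtraction and dye normalization, a log10 ratio and flags (other). The deposited value table is in log2. Recomputed from the processed signals (log2, Cy5 over Cy3), its values matched within 2.52e-06 for 55249 probes, so it carries no further centring. Its column medians ran from -0.0431 to 0.224. The authors' own tests are not given in the sources used here.

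Median signals were corrected with normexp (offset 50) and normalized by loess within arrays with limma 3.58.1 in R 4.3.3 (statmod 1.5.0 for the random block). Left out were control spots and outlying or non-uniform spots (0.657%), and replicate spots were averaged by probe. A probe was tested if either dye was well above background on all 3 arrays of a group, which 31802 of 55681 probes were. The probe with the highest mean intensity stood for a gene, which gave 22630 genes, 13635 with a symbol. Symbols and promoters came from RefSeq on GRCm38.p6, and 28026 of 29796 probes with an accession matched. The planned mean signals were not used, since the files hold median signals.

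Ratios were tested with lmFit and eBayes over all 6 arrays (4 residual degrees of freedom, 95% intervals). Treatment within Cdk6-/- samples was tested on Cy5 levels after quantile normalization of average intensities between arrays. Only the limma fit was run on simulated ratios with known shifts. Background correction, normalization and the choice of probes were not part of that run. Precision is limited by the number of arrays and by dim signals, and an exact permutation test of 3 against 3 arrays cannot go below 0.1. Arrays were numbered as deposited, so equal numbers pair nothing. The 50 genes, the 12 lists beside them and the tests were chosen with earlier results of these data known. By a fixed rule, values on every array were given for each mitotic gene past the threshold and for 21 genes of known main roles. From the other mitotic genes up to 8 were named, from the regulators up to 6 and from the other lists up to 3, by smallest p, less 1 gene that is not reported here. Alternatives were other centring, processed signals, other probe rules and filters, slide as a block and leaving out each array. Chosen after seeing the data were centring on the tested genes and leaving out array 3 of both treatments.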

Additional observations from a re-analysis of the deposited data

Results flagged for a closer look

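Nek2 was the only mitotic gene tested whose ratio had opposite signs on every array of the 2 treatments. The ratio of Cdk6-/- sample to wild-type pool was 0.20, 0.07 and 0.20 on polyI:C arrays 1, 2 and 3 and -0.52, -0.72 and -0.22 on untreated arrays 1, 2 and 3. The difference between treatments was 0.64 (SE 0.24, limma adjusted p = 0.214), so it did not pass over all genes. In 14.3% of all genes the polyI:C ratios were all above the untreated ones, whatever their signs. The share of all genes with such opposite signs was not counted.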

How the results depend on the processing

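No paired analysis was possible because arrays were numbered as deposited and the labels pair no samples. Of 19 mitotic genes lower in untreated Cdk6-/- samples, Kif2c passed under all 14 alternatives, and Ccnb2, Bub1 and Cdc20 were lost under 10 each. Cdc25c and Kif18b passed under the 13 alternatives that held them. The strict filter kept only probes above background in both dyes on every array, and left Cdc25c and Kif18b untested. Median centring over all probes, under which all genes had a median of 0.21 with polyI:C and 0.30 untreated, called 1 mitotic gene with polyI:C, Birc5, at 0.69 (reversed from -0.15), and 8 untreated, 6 lower and 2 higher (Mad2l1 and Hmmr). Counts of all genes under it were 2571 with polyI:C (238 lower, 2333 higher), 6196 untreated (1333 lower, 4863 higher) and 241 for the difference. As reported, the counts were 222 with polyI:C (148 lower, 74 higher), 2944 untreated (2250 lower, 694 higher), 409 for the difference and 37 for treatment within Cdk6-/- samples. Centring on the tested genes gave 1540 with polyI:C (385 lower, 1155 higher), 3686 untreated (2312 lower, 1374 higher) and 269 for the difference. Processed signals gave 33 with polyI:C, 176 for the difference and 17 within Cdk6-/- samples. Without a filter on dim probes the counts were 94, 253 and 17, and the strict filter gave 263 for the difference. Centring Cy5 on its median gave 69 within Cdk6-/- samples. With slide as a fixed block, 0 genes passed for the difference (4437 at an unadjusted p under 0.05) and 17 within Cdk6-/- samples. For the difference, 1 mitotic gene passed with the mean of all probes and with slide as a random block (Kif18b both times), and 1 without untreated array 2 (Kif2c). Leaving out 1 array gave 7 to 219 genes with polyI:C, 1377 to 3427 genes and 8 to 17 mitotic genes untreated, 6 to 375 genes and 0 or 1 mitotic genes for the difference, and 0 to 23 genes within Cdk6-/- samples (1671 to 3855 at an unadjusted p under 0.05). The median of the mitotic genes minus that of all genes, -0.49 untreated, was -0.62 to -0.43 over those fits. Without array 3 of both treatments 0 genes passed with polyI:C, for the difference and within Cdk6-/- samples (3517, 4554 and 4135 at an unadjusted p under 0.05), and 1639 passed untreated, with that median at -0.62. The cause of these changes was not tested. Of the mitotic genes, 6 were not above background in every untreated Cdk6-/- sample, which limits their ratios.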
